A study of Mus musculus with 17 samples.

Results

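Livers of 17 mice were compared for 10 genes of the liver X receptor (LXR) pathway and of sterol efflux: the receptors Nr1h3, Nr1h2, and Rxra, the transporters Abca1, Abcg1, Abcg5, and Abcg8, and Mylip, Pltp, and Lcat. The genes were chosen by symbol, and every probe that carried 1 of these symbols in the deposited log2 ratio table was taken, which gave 13 of 41174 non-control probes and 10 of 21452 gene symbols. Rxra, Abcg8, and Mylip had 2 probes each, and the probe brighter in the liver channel (probe 1) stands for the gene unless probe 2 is named. Male mice were fed chow or a high-fat diet (HFD) for 3 months and then received a single gavage. Chow mice (n = 4) and HFD mice (n = 4) were given maltose, and 1B mice (chow, n = 4) and HFD+1B mice (HFD, n = 5) were given ethanol at 5 g/kg. The methods put the killing of HFD-fed mice 9 hours after the gavage and name C57BL/6J mice, whereas the sample labels give C57BL/6N. Ages were not given in the sources used here. Liver cDNA of 1 mouse in Cy5 and a common reference RNA in Cy3 were hybridized to each 2-color Agilent array. The labels name the reference as assorted mouse RNA but give its tissue as liver. It was common to all arrays, so a level is the log2 ratio of liver to reference for 1 probe and is not comparable between probes.

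LXRα, encoded by Nr1h3, and LXRβ, encoded by Nr1h2, are nuclear receptors for oxysterols, the oxidized forms of cholesterol. Each binds DNA together with a retinoid X receptor such as RXRα, encoded by Rxra, and in the liver the activated pair switches on genes that remove sterols from cells, secrete them into bile, remodel high-density lipoprotein (HDL), and make fatty acids. ABCA1 passes cholesterol and phospholipid to apolipoprotein A-I, ABCG1 passes cholesterol to HDL particles, and ABCG5 and ABCG8 together form the transporter that moves sterols from hepatocytes into bile. MYLIP is a ubiquitin ligase that marks lipoprotein receptors for degradation, PLTP transfers phospholipids among lipoproteins, and LCAT esterifies the cholesterol of HDL.

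The sequences upstream of Abca1, the member that rose with ethanol, and between Abcg5 and Abcg8, the pair that fell with it on chow, are shown because the results turn on these genes. RefSeq promoter windows of build GRCm38.p6, with 250 bases before and 50 after each start, were found for 9 of the 10 genes (12 windows), and Abcg1 had none. LXR and RXR are known to bind a direct repeat of AGGTCA with a 4-base gap (DR4). In its exact form, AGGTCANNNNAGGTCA, it occurred on either strand in 0 of the 12 windows and in 0.0152% of 32851 mouse promoter windows. A relaxed form, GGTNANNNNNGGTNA, was written after the Abca1 sequence had been seen, and it occurred in 1 of the 12 windows, that of Abca1, and in 0.718% of all windows. In the 250 bases before the Abca1 start, chr4:53159896-53160145 on the minus strand, its match lies on the opposite strand from 67 bases before the start and is given in capitals.
Abca1: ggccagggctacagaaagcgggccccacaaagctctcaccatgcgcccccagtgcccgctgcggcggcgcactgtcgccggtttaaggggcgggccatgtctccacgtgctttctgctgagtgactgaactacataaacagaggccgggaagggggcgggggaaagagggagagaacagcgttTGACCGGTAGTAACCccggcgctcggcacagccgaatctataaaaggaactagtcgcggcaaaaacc
The single half-site AGGTCA, which is part of the exact repeat, was found in 1 of the 12 windows, the downstream one of Rxra, and in 16.3% of all windows. Abcg5 on the minus strand and Abcg8 on the plus strand start head to head with 109 bases between their starts, chr17:84683012-84683120, read here on the plus strand. The capitals mark 2 matches of AGATAA, the core of the motif of GATA factors, both on the minus strand. AGATAA was found in 3 of the 12 windows (Abcg5, the overlapping one of Abcg8, and Lcat) and in 11.2% of all windows.
Abcg5-Abcg8: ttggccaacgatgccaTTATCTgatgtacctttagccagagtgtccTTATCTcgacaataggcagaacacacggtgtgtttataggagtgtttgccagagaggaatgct
A match of letters in these windows is a description of the sequence and does not show that a factor was bound there.

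The arrays lay on 5 slides, and 74.2% to 86.1% of probes were well above background in Cy5 on each. Median Cy5 intensities per array ran from 43 to 78 in HFD mice, 79.5 to 116 in chow mice, 49 to 112.5 in 1B mice, and 70 to 138.5 in HFD+1B mice. The mean log2 ratio of 5 ribosomal RNA probes was -3.80 to -2.15 in HFD mice, 0.22 to 0.56 in chow mice, -1.17 to 0.12 in 1B mice, and -1.01 to 1.11 in HFD+1B mice, so the HFD arrays stood apart. The part of this in the comparisons with HFD mice was not tested, and they enter the comparisons of 1B and HFD+1B with chow mice only through the shared estimate of the spread. In whole liver RNA, fewer cells of a type and less RNA per cell cannot be told apart. All 13 member probes passed the filter on dim probes and were well above background on all 17 arrays, except Abcg1 (12 arrays) and Mylip probe 2 (14 arrays).

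In chow-fed mice ethanol raised Abca1 and lowered Abcg8 and Abcg5, and it lowered Nr1h3 by a call that 4 of 13 alternatives ended. HFD with maltose lowered Abcg5, by a call that 6 of 13 alternatives ended. By probe 1 no other member passed the threshold, while probe 2 of Rxra did. In HFD+1B mice Abca1 was 2.96-fold above chow mice, and Nr1h3, Abcg8, and Lcat were below them. A probe was called when its limma p, adjusted by Benjamini-Hochberg over 34664 probes, was 0.05 or less. In 1B against chow mice 4 of the 10 genes were called, against 3.63% of all probes tested, and the median log2 difference over the 10 genes was -0.18 (all probes: 0.0073). In HFD against chow mice 1 gene was called, where 9.89% of all probes were, with a median of 0.13 (all probes: 0.0022). For HFD+1B against chow mice the count was 4, where 14.8% of all probes were called, with a median of -0.13 (all probes: -0.0012). For HFD+1B against HFD mice it was 5, where 17.9% were called, with a median of -0.12 (all probes: 0.0053). For HFD+1B against 1B mice it was 3, where 9.98% were called, with a median of 0.24 (all probes: -0.0091). The interaction, in which the 1B minus chow difference was subtracted from that of HFD+1B minus HFD and which tests whether ethanol changed a gene alike on both diets, was called for 2 genes and for 4.02% of all probes. The comparisons share mice and their counts are not independent of each other.

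**Figure D1:**
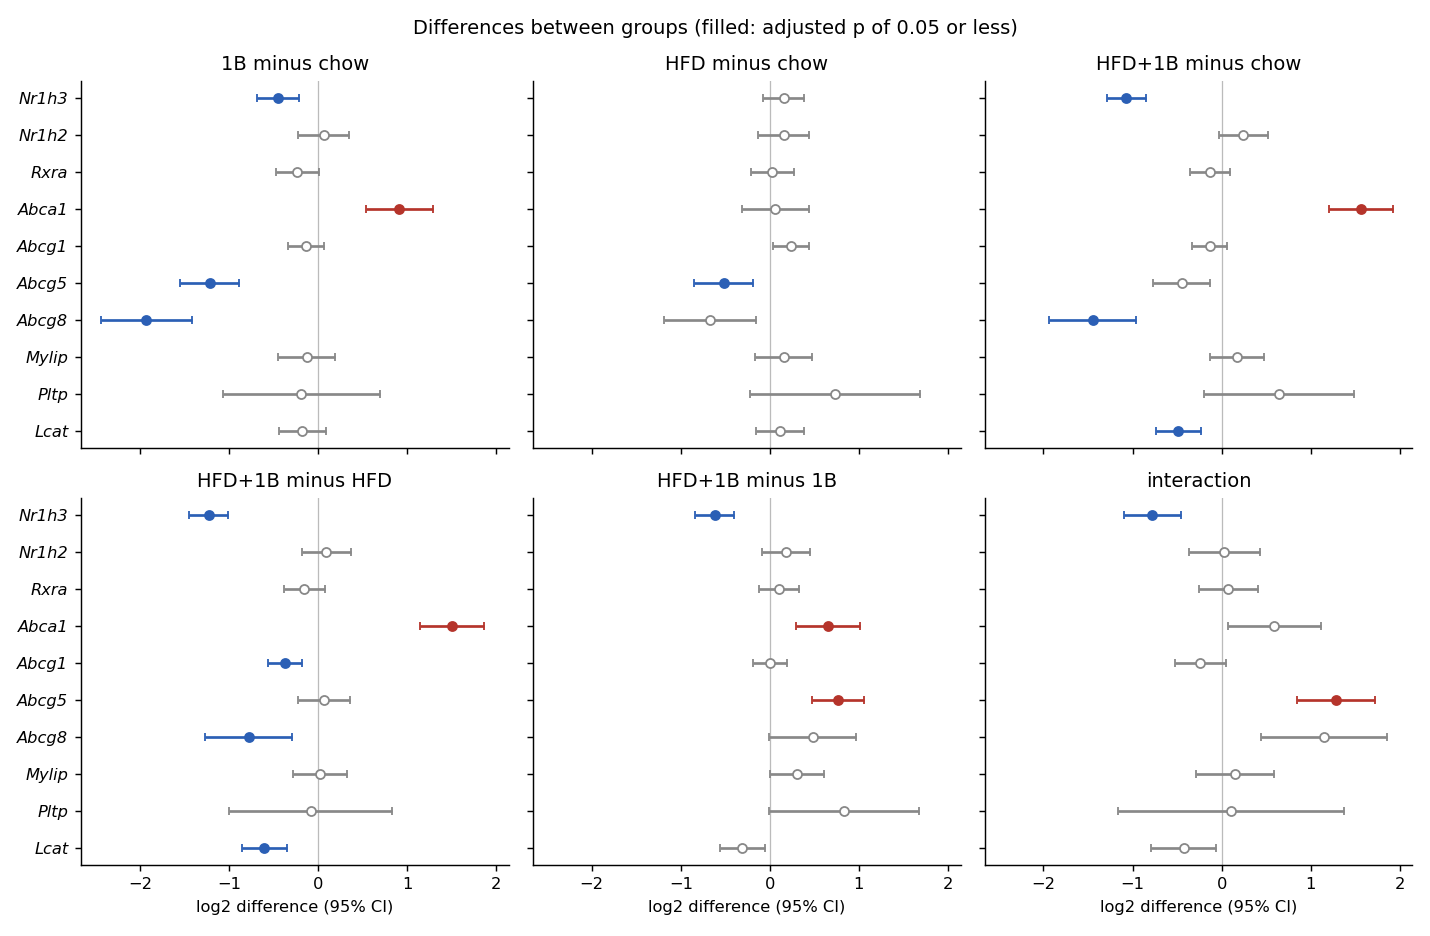
Log2 differences of the 10 genes (vertical axis) in the 6 comparisons (panels), as points with 95% confidence intervals from the limma fit of all 17 arrays. Filled points passed an adjusted p of 0.05, with red for higher and blue for lower, and open points did not. Abca1 lies to the right in each ethanol comparison, and Abcg5 and Nr1h3 are the 2 filled points of the interaction.

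Abca1, the exporter of cholesterol to apolipoprotein A-I, rose with ethanol on both diets. Its log2 ratios were -0.95, -0.81, -1.02, and -0.88 in chow mice and 0.20, 0.01, -0.32, and 0.10 in 1B mice. In HFD mice they were -0.99, -0.95, -0.40, and -1.08, and in HFD+1B mice 1.01, 0.06, 0.90, 0.69, and 0.59. Each ethanol-treated mouse thus lay above every mouse given maltose, HFD mice overlapped with chow mice, with 1 mouse above and 1 below the range of these, and 4 of 5 HFD+1B mice lay above every 1B mouse. The level in 1B mice was 1.88-fold that of chow mice (log2 difference 0.91, SE 0.18, limma adjusted p = 0.00669). HFD+1B mice exceeded chow mice 2.96-fold (1.57, SE 0.17, limma adjusted p = 8.14e-06), HFD mice 2.84-fold (1.50, SE 0.17, limma adjusted p = 3.54e-05), and 1B mice 1.57-fold (0.65, SE 0.17, limma adjusted p = 0.0197). The last of these missed the threshold in the authors' own ratios (0.69, adjusted p = 0.0584), in a fit of the compared groups alone (adjusted p = 0.0525), and without 1B mouse 3. HFD against chow differed by 0.06 (95% CI, -0.32 to 0.44, limma adjusted p = 0.867). The rise was larger on HFD by 0.59, but this interaction did not pass (95% CI, 0.07 to 1.11, limma adjusted p = 0.188). It passed under median centring (0.89, adjusted p = 0.0404), and with Cy5 alone it was 0.96 (adjusted p = 0.0818). Within slides, HFD+1B was above HFD by 1.30 to 2.00 on 4 of 4 slides and 1B above chow by 0.69 to 1.15 on 3 of 3.

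**Figure D2:**
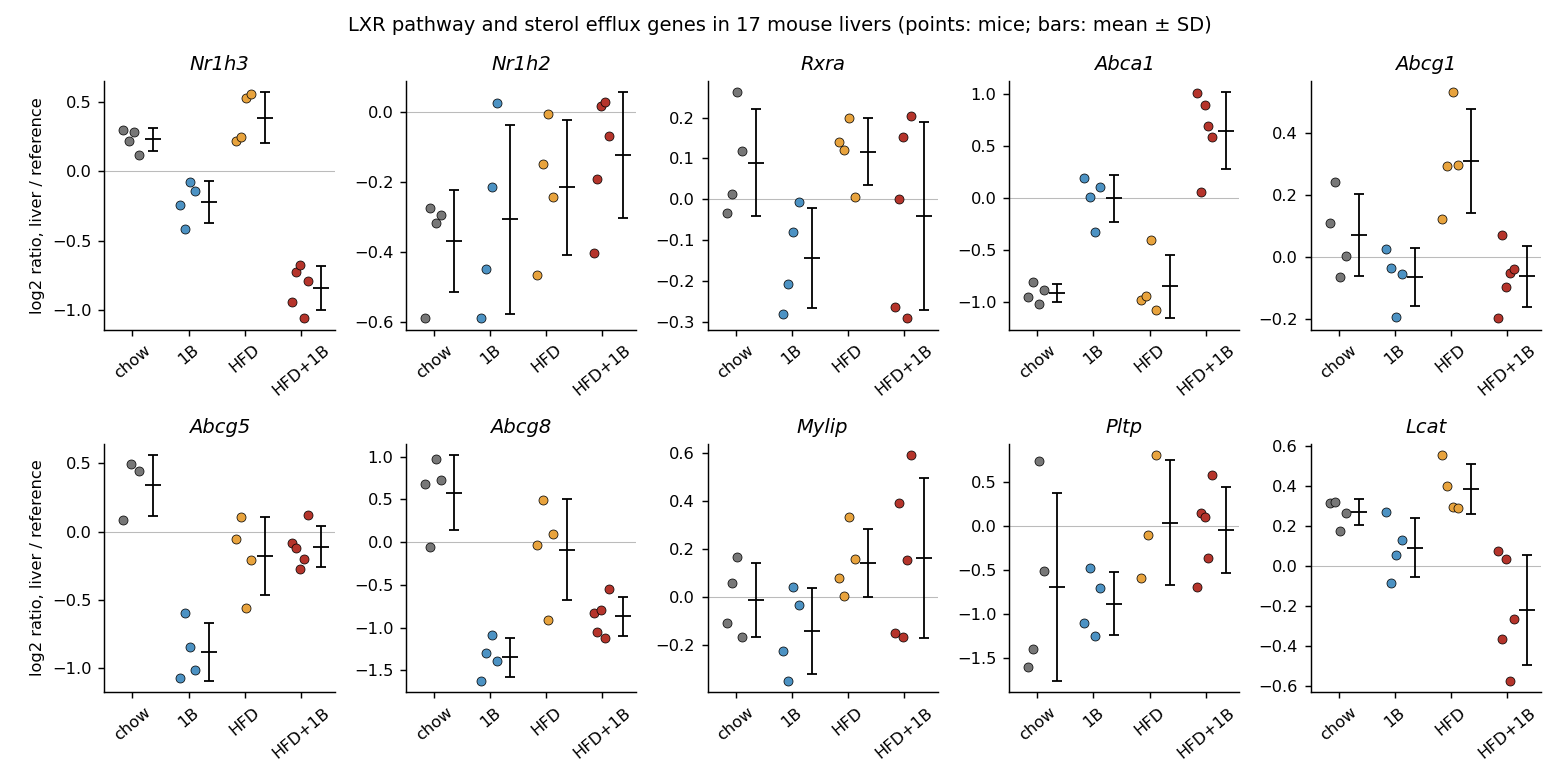
Log2 ratio of liver to reference (vertical axis, scaled separately for each gene) of the 10 genes in chow, 1B, HFD, and HFD+1B mice. Points are single mice, in the order of their replicate numbers, and bars give the mean and SD. Abca1 of all ethanol-treated mice lies above all mice given maltose, and Nr1h3 of all HFD+1B mice lies below every other mouse.

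Nr1h3, which encodes LXRα, moved the opposite way. Chow mice had 0.30, 0.22, 0.28, and 0.12, 1B mice -0.24, -0.42, -0.08, and -0.14, HFD mice 0.22, 0.25, 0.53, and 0.56, and HFD+1B mice -0.94, -0.72, -0.68, and -1.06 with -0.79 in the fifth. The maltose groups overlapped, 1B mice lay below both of them, and HFD+1B mice lay below all others. HFD+1B mice were 2.10-fold below chow mice (log2 difference -1.07, SE 0.10, limma adjusted p = 2.85e-06), 2.34-fold below HFD mice (-1.23, SE 0.10, limma adjusted p = 2.62e-06), and 1.54-fold below 1B mice (-0.62, SE 0.10, limma adjusted p = 0.00099). The decrease in 1B mice was smaller, 1.37-fold (-0.45, SE 0.11, limma adjusted p = 0.0269), and the interaction was -0.78 (SE 0.15, limma adjusted p = 0.0117). HFD alone differed from chow by 0.16 (95% CI, -0.07 to 0.39, limma adjusted p = 0.393). On slides that held both groups, HFD+1B minus HFD was -1.62 to -1.04 on 4 of 4 slides, and 1B minus chow -0.64 to -0.36 on 3 of 3. Normalization mattered for the smaller values. For 1B minus chow the call was lost with the authors' ratios (-0.50, adjusted p = 0.128), median centring (-0.55, adjusted p = 0.0762), Cy5 alone (-0.05, adjusted p = 1), and the 2-fold rule, and without any 1 of chow mice 1, 2, and 3 and 1B mice 1 and 2 (adjusted p up to 0.1). The interaction was lost with the authors' ratios (-0.78, adjusted p = 0.0533), median centring (-0.39, adjusted p = 0.306), Cy5 alone (-1.31, adjusted p = 0.191), and the 2-fold rule. HFD+1B minus 1B was lost under median centring (-0.46, adjusted p = 0.0636), with Cy5 alone (-0.84, adjusted p = 0.189), and by the 2-fold rule. With Cy5 alone HFD+1B minus chow also missed the threshold (-0.88, adjusted p = 0.117), while HFD+1B minus HFD was called under all 13 alternatives and without any 1 mouse.

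Nr1h2, which encodes LXRβ, was called by limma in none of the 6 comparisons, and its unadjusted p was below 0.05 in 0 of them. Its group means were -0.37 ± 0.15 in chow (SD, n = 4), -0.21 ± 0.19 in HFD (n = 4), -0.31 ± 0.27 in 1B (n = 4), and -0.12 ± 0.18 in HFD+1B mice (n = 5), and the groups overlapped. The largest difference, HFD+1B minus chow, was 0.25 (95% CI, -0.03 to 0.52, limma adjusted p = 0.248).

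The 2 probes of Rxra, the partner of both receptors, gave different values in HFD mice. Probe 1, the brighter, had means of 0.09 ± 0.13 in chow, 0.12 ± 0.08 in HFD, -0.14 ± 0.12 in 1B, and -0.04 ± 0.23 in HFD+1B mice and was called in no comparison, with HFD minus chow at 0.03 (95% CI, -0.21 to 0.27, limma adjusted p = 0.913). Probe 2 was lower in HFD mice, at -0.70, -0.47, -1.63, and -1.20, than in chow mice, whose highest value was 0.04 and lowest -0.47. For this probe HFD minus chow was -0.85 (SE 0.20, limma adjusted p = 0.0117) and HFD+1B minus HFD was 0.67 (SE 0.19, limma adjusted p = 0.0191). Probes can match different parts of a transcript, and the positions of these 2 were not compared here, so no direction is given for Rxra in HFD mice.

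**Figure D3:**
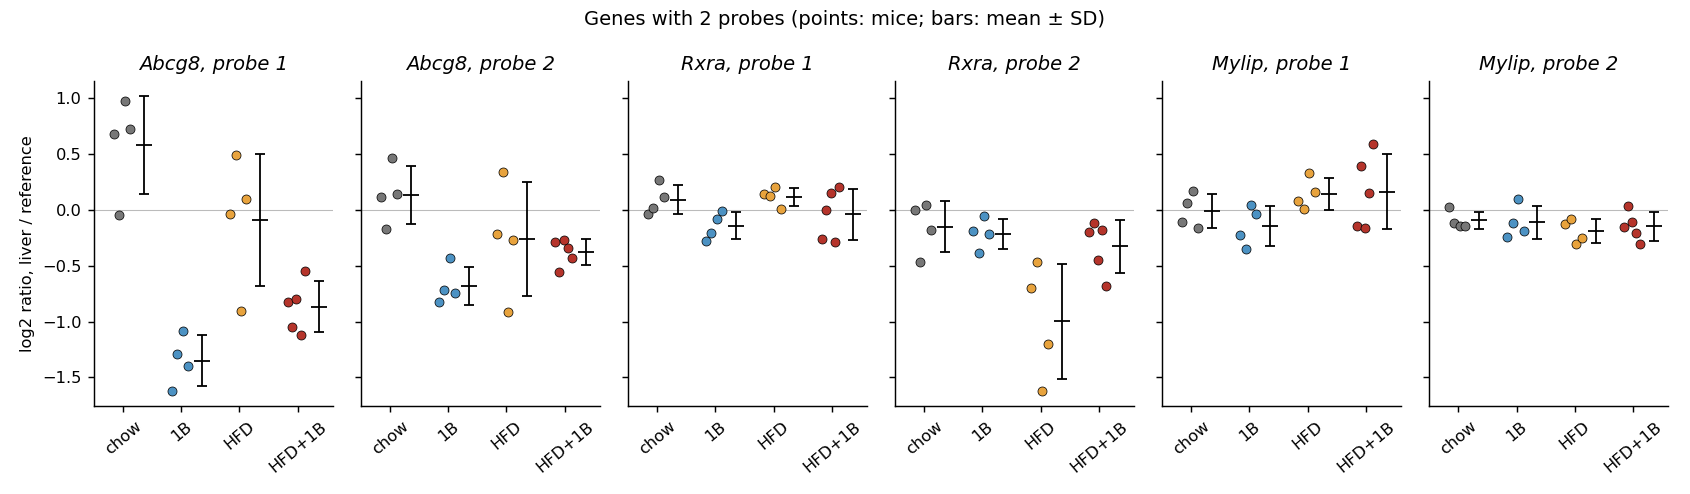
Log2 ratio of liver to reference (vertical axis, common to all panels) for both probes of Abcg8, Rxra, and Mylip in the 4 groups. Points are single mice and bars the mean and SD. Both Abcg8 probes have their lowest group mean in 1B mice, with a narrower range of means for probe 2, whereas only probe 2 of Rxra is low in HFD mice. For Abcg8 probe 2 the lowest single mouse is HFD mouse 3.

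Abcg5 and Abcg8, the subunits of the biliary sterol transporter, fell most in 1B mice. Abcg8 had log2 ratios of 0.68, -0.05, 0.97, and 0.72 in chow mice and -1.62, -1.29, -1.08, and -1.40 in 1B mice. HFD mice ranged widely, at -0.04, 0.49, -0.91, and 0.10, and HFD+1B mice had -0.82, -1.05, -0.79, -1.12, and -0.55. All ethanol-treated mice lay below all chow mice, while HFD mouse 3 lay among the HFD+1B mice. The level was 3.81-fold lower in 1B than in chow mice (log2 difference -1.93, SE 0.24, limma adjusted p = 0.000165), the largest change of a member in any comparison. In HFD+1B mice it was 2.73-fold below chow mice (-1.45, SE 0.23, limma adjusted p = 0.000317) and 1.71-fold below HFD mice (-0.78, SE 0.23, limma adjusted p = 0.0274). The comparison with HFD mice did not hold in 5 of the alternatives, among them median centring (-0.50, adjusted p = 0.13) and the mean of both probes (-0.45, adjusted p = 0.128), nor without any 1 of HFD mice 1, 2, and 4 and HFD+1B mice 2 and 4. HFD minus chow was -0.67 (95% CI, -1.19 to -0.16, limma adjusted p = 0.0916), and it was called without chow mouse 2 or HFD mouse 2. Probe 2 of Abcg8 had the same order of group means with smaller distances, at -0.82 for 1B minus chow (SE 0.19, limma adjusted p = 0.0197) and -0.51 for HFD+1B minus chow (SE 0.18, limma adjusted p = 0.0654). With this probe HFD+1B minus HFD was -0.11 (95% CI, -0.49 to 0.26, limma adjusted p = 0.718), and these groups overlapped.

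Abcg5 was at 0.09, 0.49, and 0.44 in 3 chow mice, the spot of chow mouse 1 being an outlier that was left out, and at -1.07, -0.59, -0.84, and -1.01 in 1B mice. HFD mice had -0.05, 0.11, -0.55, and -0.21, and HFD+1B mice -0.08, -0.12, -0.27, -0.20, and 0.12. Every 1B mouse was below every mouse of the other groups, HFD mouse 3 being the closest. The decrease in 1B against chow mice was 2.33-fold (log2 difference -1.22, SE 0.16, limma adjusted p = 0.00025). HFD+1B mice were 1.70-fold above 1B mice (0.77, SE 0.14, limma adjusted p = 0.00194) and differed from HFD mice by 0.07 (95% CI, -0.23 to 0.36, limma adjusted p = 0.797). The interaction was 1.28 (SE 0.21, limma adjusted p = 0.00473), and it was called under all 11 alternatives and without any 1 mouse. Against chow, HFD mice were lower by a log2 difference of -0.52 (SE 0.16, limma adjusted p = 0.0471), a call that 6 alternatives and 12 of the 17 omissions of a mouse ended. HFD+1B minus chow was -0.45 (SE 0.15, limma adjusted p = 0.054), and with the outlying spot of chow mouse 1 kept it was -0.50 (adjusted p = 0.019). For Abcg8 the interaction pointed the same way as for Abcg5, at 1.15, but did not pass (SE 0.34, limma adjusted p = 0.0615). It passed under median centring (1.40, adjusted p = 0.0197), with probes above background on all arrays (adjusted p = 0.0486), by the 2-fold rule, and without chow mouse 2 (adjusted p = 0.0273) or HFD mouse 2 (adjusted p = 0.0271).

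**Figure D4:**
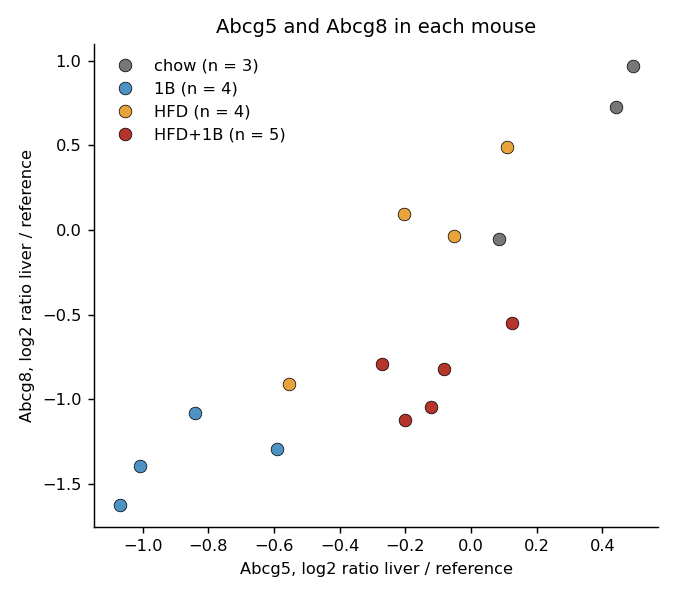
Log2 ratio of Abcg5 (horizontal axis) against that of Abcg8 (vertical axis) in 16 mice, 1 point for each, colored by group. Chow mouse 1 has no Abcg5 value. The 1B mice lie at the lower left and 2 chow mice at the upper right, and at a like Abcg5 level the HFD+1B mice lie below HFD mice 1, 2, and 4 on the Abcg8 axis. Abcg8 is given by probe 1, and with probe 2 the HFD and HFD+1B mice overlapped.

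Abcg5 and Abcg8 also varied together among mice of 1 group. Over 16 mice, the deviations of the 2 genes from their group means had a Pearson r of 0.84, the highest of the 45 pairs of members. In HFD mice, mouse 3 was lowest and mouse 2 highest for both genes, and in chow mice mouse 2 was lowest for both. The values come from the same arrays and share their normalization, and 16 mice in 4 groups allow no more than this description. Over all mice Nr1h3 and Abca1 had an r of -0.91 (n = 17), but their deviations from the group means had -0.14, so that relation lay between the groups.

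Abcg1, which passes cholesterol to HDL and is known mainly from macrophages, was dim, with a signal above background on 12 of 17 arrays. Its log2 ratios were 0.11, 0.24, -0.06, and 0.0033 in chow mice, 0.03, -0.03, -0.19, and -0.05 in 1B mice, 0.12, 0.29, 0.53, and 0.30 in HFD mice, and -0.20, 0.07, -0.10, -0.05, and -0.04 in HFD+1B mice. All HFD+1B mice lay below all HFD mice, and the groups otherwise overlapped except that each HFD mouse was above each 1B mouse. HFD+1B was 1.29-fold below HFD (log2 difference -0.37, SE 0.09, limma adjusted p = 0.0103), while HFD minus chow was 0.24 (95% CI, 0.03 to 0.44, limma adjusted p = 0.133). The authors' ratios, which were not offset, gave 1.58 for HFD minus chow and -2.23 for HFD+1B minus HFD, and the size of a change is therefore not settled for this probe. With Cy5 alone the latter was -0.35 (adjusted p = 0.1). The mean level of 13 macrophage and Kupffer cell markers was 0.12 to 0.23 in HFD mice, -0.56 to 0.08 in chow mice, -0.40 to -0.12 in 1B mice, and -0.10 to 0.54 in HFD+1B mice, and its part in the Abcg1 values was not tested.

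Lcat, the enzyme that esterifies the cholesterol of HDL, was lower in HFD+1B mice. Chow mice had 0.32, 0.32, 0.18, and 0.27, 1B mice 0.27, -0.09, 0.06, and 0.13, HFD mice 0.56, 0.40, 0.30, and 0.29, and HFD+1B mice 0.08, -0.37, 0.03, -0.57, and -0.26. All HFD+1B mice were below all mice given maltose, and they overlapped with 1B mice. The level was 1.40-fold below chow (log2 difference -0.49, SE 0.12, limma adjusted p = 0.00938) and 1.52-fold below HFD mice (-0.60, SE 0.12, limma adjusted p = 0.00237). The first value missed the threshold in the authors' ratios (-0.44, adjusted p = 0.0725) and the second under median centring (-0.36, adjusted p = 0.0817). In 1B mice Lcat was -0.18 from chow (95% CI, -0.44 to 0.09, limma adjusted p = 0.639), and the interaction of -0.43 did not pass (limma adjusted p = 0.178).

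Pltp, the phospholipid transfer protein, was called by limma in none of the 6 comparisons (unadjusted p below 0.05 in 0), and its spread was the widest of the members. Chow mice had -1.60, -1.40, 0.74, and -0.51, 1B mice -1.10, -0.48, -1.24, and -0.70, 3 HFD mice -0.59, -0.11, and 0.80, and HFD+1B mice -0.69, 0.14, 0.10, -0.36, and 0.57. HFD+1B minus chow was 0.64 (95% CI, -0.19 to 1.48, limma adjusted p = 0.341), and without chow mouse 3, the highest of its group, it was 1.12 (adjusted p = 0.0355).

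Mylip, the ligase for lipoprotein receptors, was called by limma for neither probe in any of the 6 comparisons (unadjusted p below 0.05 in 1 for probe 1 and in 0 for probe 2). Group means of probe 1 were -0.01 ± 0.15 in chow, 0.14 ± 0.14 in HFD, -0.14 ± 0.18 in 1B, and 0.16 ± 0.33 in HFD+1B mice, and those of probe 2 lay between -0.19 and -0.10. HFD+1B minus chow was 0.17 for probe 1 (95% CI, -0.13 to 0.48, limma adjusted p = 0.502) and -0.05 for probe 2 (95% CI, -0.25 to 0.14, limma adjusted p = 0.786).

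Vldlr, the receptor for very-low-density lipoprotein and a known substrate of MYLIP, rose at the RNA level. Vldlr was -1.11 ± 0.05 in chow and 0.23 ± 0.37 in HFD+1B mice (difference 1.34, SE 0.15, limma adjusted p = 1.18e-05), and HFD alone raised it by 0.59 (SE 0.16, limma adjusted p = 0.0274).

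Of 10 enzymes that make or remove oxysterols, the ligands of LXR, or their sterol precursors, 0 rose and 3 fell in HFD+1B against chow mice, where 14.8% of all probes were called (6.89% lower), with a median of -0.20. Cyp7b1, the oxysterol 7α-hydroxylase, was 0.46 ± 0.38 in chow, -1.20 ± 0.48 in HFD, 0.85 ± 0.16 in 1B, and -2.46 ± 0.81 in HFD+1B mice, and HFD+1B minus chow was -2.92 (SE 0.32, limma adjusted p = 8.14e-06). It fell with HFD alone as well (-1.66, SE 0.34, limma adjusted p = 0.00515). Cyp7a1, the rate-limiting enzyme of bile acid synthesis and in mice a known LXR target, was 0.52 ± 0.55 in 3 chow mice, 0.03 ± 0.41 in HFD, 0.67 ± 0.36 in 1B, and -1.60 ± 0.29 in HFD+1B mice. Its difference from chow in HFD+1B mice was -2.11 (SE 0.25, limma adjusted p = 2.27e-05), and the interaction was -1.78 (limma adjusted p = 0.0127). Cyp27a1, the sterol 27-hydroxylase, fell by 0.67 on the log2 scale in HFD+1B mice (SE 0.14, limma adjusted p = 0.00289) and by 0.52 in HFD mice (SE 0.14, limma adjusted p = 0.0298).

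Among 16 other known LXR targets, 3 rose and 0 fell in 1B, 3 rose and 1 fell in HFD, and 5 rose and 1 fell in HFD+1B mice, each against chow, where 3.63%, 9.89%, and 14.8% of all probes were called. The medians of the list were 0.13, 0.29, and 0.36. Fasn, fatty acid synthase, was -1.88 ± 0.49 in chow, -1.38 ± 0.22 in HFD, 0.42 ± 0.49 in 1B, and 0.09 ± 0.58 in HFD+1B mice, so both ethanol groups were above both maltose groups, and HFD+1B minus chow was 1.97 (SE 0.28, limma adjusted p = 0.000104). Scd1, the stearoyl-CoA desaturase, rose by 2.47 (SE 0.46, limma adjusted p = 0.00125), with chow mice spread from -2.74 to 0.33. Elovl5, a fatty acid elongase, was higher in both HFD-fed groups, by 2.00 in HFD (SE 0.28, limma adjusted p = 0.000367) and 2.22 in HFD+1B mice (SE 0.26, limma adjusted p = 1.72e-05). Apoc2, the cofactor of lipoprotein lipase, rose by 1.74 in HFD mice (SE 0.19, limma adjusted p = 5.87e-05) and Apoe by 0.38 (SE 0.10, limma adjusted p = 0.0172).

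**Figure D5:**
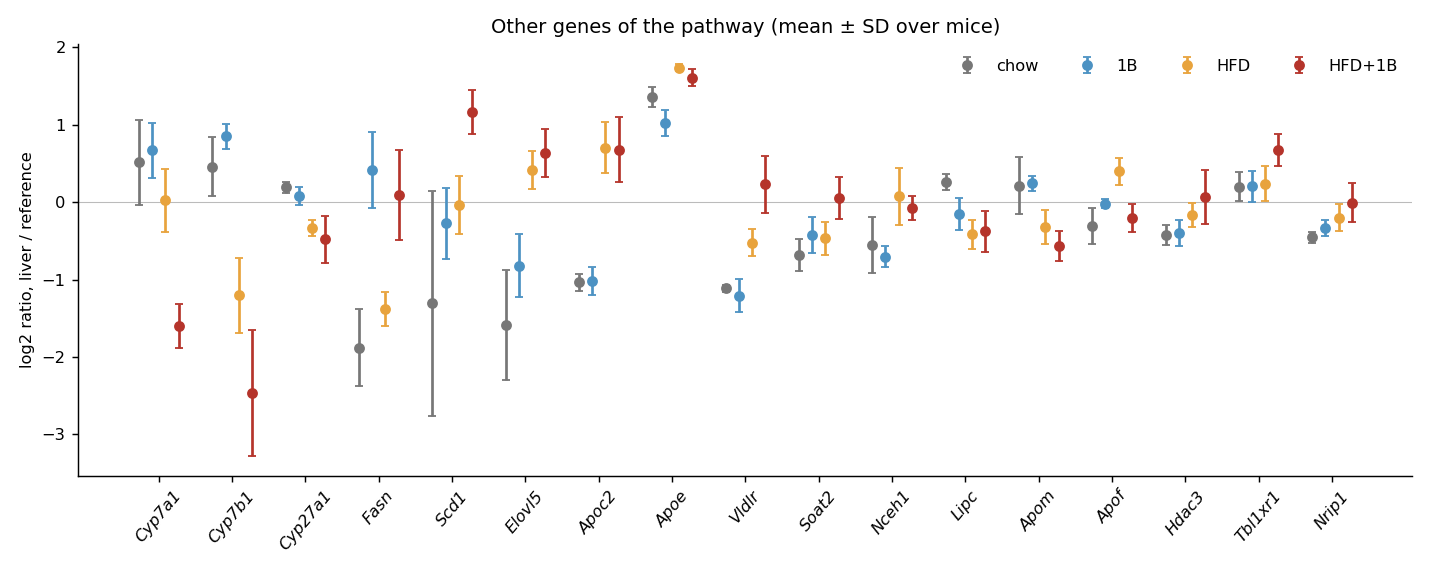
Log2 ratio of liver to reference (vertical axis) of other genes of the pathway (horizontal axis), as the mean and SD over 3 to 5 mice of each group. Cyp7a1 and Cyp7b1 are lowest in HFD+1B mice, and Fasn is higher in both ethanol groups than in both maltose groups.

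Of 17 genes of HDL and cholesterol handling tested, 0 rose and 2 fell in 1B, 3 rose and 2 fell in HFD, and 1 rose and 2 fell in HFD+1B mice against chow. All probes were called at 3.63%, 9.89%, and 14.8% in these comparisons, so the count in HFD+1B mice was near the background. Soat2, which esterifies cholesterol in hepatocytes, rose by 0.74 in HFD+1B mice (SE 0.15, limma adjusted p = 0.00198), whereas Apom, an HDL apolipoprotein, fell by 0.78 (SE 0.15, limma adjusted p = 0.00136) and Lipc, hepatic lipase, by 0.64 (SE 0.13, limma adjusted p = 0.00249). Lipc also fell by 0.67 in HFD mice (SE 0.14, limma adjusted p = 0.00539), where Apof rose by 0.70 (SE 0.12, limma adjusted p = 0.00187) and Nceh1, a cholesteryl ester hydrolase, by 0.63 (SE 0.18, limma adjusted p = 0.0322). Of 16 coregulators and partners of the receptors, 4 rose and 0 fell in HFD+1B against chow mice, where 14.8% of all probes were called (7.87% higher), and 0 were called by limma in 1B or HFD mice (unadjusted p below 0.05 in 0 and 3). In HFD+1B against HFD mice 4 rose and 2 fell, where 17.9% of all probes were called. Those that fell, named after their values were seen, were Rxrb (-0.33, SE 0.10, limma adjusted p = 0.0356) and Rxrg (-0.72, SE 0.18, limma adjusted p = 0.0103), which encode the other retinoid X receptors. Against chow mice, the 3 largest rises in HFD+1B mice were those of Hdac3, Tbl1xr1, and Nrip1. Hdac3, a histone deacetylase of the NCoR complex, rose by 0.49 (SE 0.15, limma adjusted p = 0.0278). Tbl1xr1, another subunit of that complex, rose by 0.47 (SE 0.13, limma adjusted p = 0.0223), and the corepressor Nrip1 by 0.45 (SE 0.12, limma adjusted p = 0.0136). The coactivator Ncoa6, named after its values were seen, rose by 0.39 (SE 0.09, limma adjusted p = 0.00488). Against HFD mice, Hdac3 (0.23, limma adjusted p = 0.297) and Nrip1 (0.19, limma adjusted p = 0.271) were not called. Tbl1xr1 (0.43, limma adjusted p = 0.0322) and Ncoa6 (0.40, limma adjusted p = 0.00434) were called there.

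The 3 genes whose levels were most like those of Abca1 over the 17 arrays, among 17985 genes with a value on each, were Stat3 (r = 0.98), Slc39a14 (r = 0.97), and Mt2 (r = 0.96). For Nr1h3 they were Fahd1 (r = 0.97), Kdr (r = 0.96), and Ormdl2 (r = 0.95), and for Abcg8 Ces1d (r = 0.94), Dsg1c (r = 0.93), and N4bp2l1 (r = 0.92). Over the 16 arrays with an Abcg5 value, Abcg8 (r = 0.85) followed Slc25a37 (r = 0.87) and Crim1 (r = 0.86). For Lcat the nearest were Urah (r = 0.89), Ptdss1 (r = 0.88), and Pradc1 (r = 0.88). The nearest gene was Cdk4 for Abcg1 (r = 0.91), Abca7 for Nr1h2 (r = 0.92), and R3hdm2 for Rxra (r = 0.88). For Mylip it was Renbp (r = 0.83), and for Pltp 4931406C07Rik (r = 0.86, over the 16 arrays with a Pltp value). These values depend on the differences between groups and describe the 17 arrays.

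Fewer cell type markers were called in 1B against chow mice than in the comparisons with HFD-fed mice, and the same held for all probes tested. The share of all probes called was 3.63% for 1B minus chow and 9.89% for HFD minus chow. It was 14.8% for HFD+1B minus chow and 17.9% for HFD+1B minus HFD. Whether the marker counts depart from these shares was not tested. In 1B against chow mice limma called 0 of 8 hepatocyte, 13 macrophage, 10 stellate cell, 7 cholangiocyte, 4 erythroid, and 5 adipocyte markers, while 1 of 12 neutrophil and 1 of 10 sinusoidal endothelial markers rose, and of the 47 markers in the first 6 lists 3 had an unadjusted p below 0.05. In HFD against chow mice 6 stellate cell, 4 macrophage, 2 endothelial, and 1 neutrophil markers rose, and 2 hepatocyte and 2 cholangiocyte markers fell. In HFD+1B against chow mice 8 stellate cell, 4 neutrophil, 3 macrophage, 2 hepatocyte, 2 endothelial, 1 cholangiocyte, and 1 erythroid markers rose and 3 endothelial and 1 neutrophil markers fell, and limma called 0 adipocyte markers in either comparison (unadjusted p below 0.05 in 1 and 0). In HFD+1B against HFD mice 3 hepatocyte, 3 cholangiocyte, 2 neutrophil, 2 endothelial, and 1 stellate cell markers rose, 4 endothelial, 1 hepatocyte, and 1 neutrophil markers fell, and limma called 0 macrophage, erythroid, or adipocyte markers (unadjusted p below 0.05 in 1, 1, and 0). The mean level of the 8 hepatocyte markers was 0.02 to 0.29 in chow, -0.45 to -0.11 in HFD, 0.18 to 0.43 in 1B, and 0.24 to 0.73 in HFD+1B mice, and that of the 10 stellate cell markers was, in the same order, -0.80 to -0.51, 0.03 to 0.32, -0.61 to -0.46, and -0.40 to 0.71. The part of cell composition in the values of HFD and HFD+1B mice was not tested.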

How the data were processed

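Liver RNA of 17 mice was measured on 2-color Agilent arrays, 1 array for each mouse. The authors scanned the arrays with Feature Extraction 11.5.1.1, and the deposited scanner files give the median signal and background of 45018 spots in both channels as raw intensity. The authors also deposited a table of log2 ratios of liver to reference, which held all but 28 of the 41174 non-control probes and, for the 40901 with 1 spot, equals the ratio of the dye-normalized processed signals within 2.74e-06. Liver was always in Cy5, so dye bias is shared by all groups. The array's annotation is older than the RefSeq build (GRCm38.p6) from which promoter sequences were read, and the number of arrays limits the precision.

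Signals were corrected with normexp (offset 50), normalized by loess within arrays, and averaged over the spots of a probe, with outlier-flagged spots left out. The offset shrinks the ratios of dim probes. Probes well above background in Cy5 on at least 4 arrays and with a value in each group were tested (34664). A limma model with 1 mean per group was fitted to the 17 arrays (limma 3.58.1, R 4.3.3, lmFit and eBayes, 2-sided). A probe was called at a Benjamini-Hochberg adjusted p up to 0.05, since the methods give no test for the arrays; their 2-fold threshold was an alternative, as were other normalizations, background settings, filters, blocks, and the omission of each mouse. The procedure was run on simulated data, with noise drawn independently for each probe and array. Correlation between arrays and the shift of the HFD arrays were not simulated. Figures were drawn with matplotlib.

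The members, lists, and tests were chosen with earlier results of these data known. The genes named are the members, for each list of other pathway genes the 3 with the largest differences among those called in HFD+1B and in HFD against chow, and the 3 genes most correlated with a member. Vldlr was named as a substrate of MYLIP, and some results that the rule covers are not reported here. Lists held coregulators and partners, oxysterol enzymes, other LXR targets, HDL and cholesterol handling, and markers of hepatocytes, macrophages, neutrophils, stellate cells, sinusoidal endothelium, cholangiocytes, erythroid cells, and adipocytes; Apoa1 was in 2 of them. Npc1l1 and Timd4 were not tested, and Tf, Serpina1a, and Hbb-b1 had no probe by symbol. Replicates are separate mice.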

Additional observations from a re-analysis of the deposited data

Results flagged for a closer look

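The effect of ethanol on Nr1h3 differed between the diets, with an interaction of -0.78 on the log2 scale (limma adjusted p = 0.0117), which did not pass in 4 of 11 alternatives. That on Abcg5 differed with an interaction of 1.28 (limma adjusted p = 0.00473), which passed in all 11. For Nr1h2, chow mouse 1 stood apart from the other chow mice, with a log2 ratio of -0.59 against -0.32 to -0.28 (gap over range 0.865). Among 50 groups of member probes examined, 2.5 such mice would be flagged by chance.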

How the results depend on the processing

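Of 754 values of single members under the alternatives, 707 kept their direction and their side of the threshold, 35 lost the call, 11 gained it, and 1 reversed; 29 more changed sign without being called in either setting. The reversal was Rxra in HFD against chow mice, at -0.41 with the mean of its 2 probes (adjusted p = 0.0252) against 0.03 for probe 1, because probe 2 was lower in HFD mice. Of 1020 values with 1 mouse left out, 986 kept direction and call.

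The number of the 10 members called in HFD against chow mice was 1. It was 2 with the authors' log2 ratios, median centring, no background subtraction, or the mean of a gene's probes. It was 0 with Cy5 alone, no filter on dim probes, the slide as a block, the compared groups alone, or the 2-fold rule. The same count in 1B against chow mice was 4, and 2 by the 2-fold rule. In HFD+1B against HFD mice it was 5, and 3 with median centring, 3 with Cy5 alone, and 2 by the 2-fold rule. In HFD+1B against 1B mice it was 3, and 1 with Cy5 alone and 0 by the 2-fold rule. The interaction was called for 2 members, and for 1 with the authors' ratios and for 1 with Cy5 alone. With 1 mouse left out the counts ranged from 0 to 2 in HFD, 3 to 4 in 1B, and 4 to 5 in HFD+1B against chow, 4 to 5 in HFD+1B against HFD, 2 to 4 in HFD+1B against 1B, and 2 to 3 for the interaction. The cause of these changes was not tested.

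Over all probes, median centring turned the split of higher to lower calls from 1370 and 2059 to 465 and 2663 in HFD against chow, from 2728 and 2389 to 2531 and 1309 in HFD+1B against chow, from 3406 and 2794 to 5687 and 906 in HFD+1B against HFD, from 1835 and 1623 to 1838 and 678 in HFD+1B against 1B, and from 832 and 561 to 1639 and 166 for the interaction. Cy5 alone gave 309 and 1113 calls in HFD, 137 and 150 in 1B (648 and 609 in the reported fit), and 925 and 931 in HFD+1B against chow, 1493 and 660 in HFD+1B against HFD, 516 and 381 in HFD+1B against 1B, and 273 and 44 for the interaction. In 1B against chow mice the authors' ratios gave 409 and 419 and median centring 349 and 443.

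With the replicate number as a block, the count of members in HFD against chow was 0, the other counts stayed within 1.5 times, and the interaction over all probes gave 1614 and 1295 calls. Correlations of deviations from group means were -0.13 to 0.48 for mice of 1 number (mean 0.16) and averaged -0.0449 for other pairs, and 9 of 17 mice correlated best with a mouse of their own number in another group. Mice on 1 slide also averaged 0.16, and others -0.0378. The labels do not say that the numbers pair the mice, and not every pair of a number correlated above 0.1, so the fit without the block was kept.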
